A study of Mus musculus with 2 samples.

Results

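The transcripts described here encode the ligands of transforming growth factor β (TGF-β) and activin, and the proteins that process, bind and anchor their precursors. The 8 genes were taken by symbol from the deposited count table and are Tgfb1, Tgfb3, Inhba, Lrrc32, Nrros, Ltbp3, Ltbp4 and Furin. They are 8 of 22036 features with an Ensembl gene identifier, and all 8 symbols were found. The data are 2 mRNA sequencing libraries from CD4 T cells that were isolated from wild-type mice (spleen and lymph node), 1 library per condition, in a series on Foxo1 and TGFβ1 in the fate of Th17 cells, the helper T cells that make IL-17. In both cultures the plates carried anti-CD3 (coated at 10 μg/mL) with anti-CD28 (coated at 5 μg/mL), and the cells received IL-6 at 20 ng/mL with antibodies to IFNγ and IL-4. The culture labelled pathogenic Th17 also received activin A at 20 ng/mL, and the culture labelled non-pathogenic Th17 received recombinant human TGFβ1 at 2 ng/mL. They are called the activin A culture and the TGFβ1 culture below, after the ligand that differed. RNA was collected after 24 h. The labels give neither the number or age of the mice nor a sort for naive cells.

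The condition thus differs in an added ligand whose own gene is among the transcripts measured here. TGF-β is made as a precursor, which the convertase furin cuts in the Golgi into a mature dimer and a propeptide that stay bound to each other as the latent complex. Latent TGF-β is held either in the extracellular matrix, by a latent TGF-β binding protein, or on a cell surface, by the leucine-rich repeat proteins GARP and LRRC33, and is inactive until integrins or proteases release it. Activin A is a dimer of the subunit encoded by Inhba and is also matured by a convertase, but it is not kept latent in the same way. Regulatory T cells are known for GARP, and myeloid cells for LRRC33.

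Of the 8 genes, 6 have an entry in the promoter table from RefSeq (GRCm38.p6), and 4 members lie on chromosome 7. The 250 bases before the start of transcription are shown for 4 of the 6, picked to show how unlike such upstream regions can be. They are the ligand with the most counts and the ligand that the activin A culture was given as protein. The others are the convertase (its second start, in an intron of the longer transcripts) and the more abundant anchor. All 4 windows are 5′ to 3′ on the strand of the gene. Capitals mark matches, on either strand, to TATAAA (the TATA box), CAGACA (the SMAD-binding box) and GGGCGG (the GC box), and the matches do not overlap in these windows. TGACTCA (the AP-1 site) and TGACGTCA (the cyclic AMP response element) were also searched.
Tgfb1, chr7:25686752-25687001, plus strand: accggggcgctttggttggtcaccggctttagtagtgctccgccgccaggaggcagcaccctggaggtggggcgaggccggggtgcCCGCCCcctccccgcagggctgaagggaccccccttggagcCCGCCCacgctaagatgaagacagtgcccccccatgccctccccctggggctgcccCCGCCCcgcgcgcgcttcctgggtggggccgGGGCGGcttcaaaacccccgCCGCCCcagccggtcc
Inhba, chr13:16011601-16011850, plus strand: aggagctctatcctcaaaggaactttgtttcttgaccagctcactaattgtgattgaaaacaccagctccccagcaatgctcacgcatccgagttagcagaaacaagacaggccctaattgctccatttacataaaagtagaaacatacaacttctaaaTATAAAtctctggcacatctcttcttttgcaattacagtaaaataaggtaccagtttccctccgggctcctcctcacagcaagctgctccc
Furin, chr7:80402813-80403062, minus strand: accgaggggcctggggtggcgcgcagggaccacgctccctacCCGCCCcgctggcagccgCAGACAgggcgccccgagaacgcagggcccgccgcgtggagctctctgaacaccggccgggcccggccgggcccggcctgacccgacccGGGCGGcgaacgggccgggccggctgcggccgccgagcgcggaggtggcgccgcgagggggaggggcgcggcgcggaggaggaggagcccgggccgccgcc
Nrros, chr16:32165595-32165844, minus strand: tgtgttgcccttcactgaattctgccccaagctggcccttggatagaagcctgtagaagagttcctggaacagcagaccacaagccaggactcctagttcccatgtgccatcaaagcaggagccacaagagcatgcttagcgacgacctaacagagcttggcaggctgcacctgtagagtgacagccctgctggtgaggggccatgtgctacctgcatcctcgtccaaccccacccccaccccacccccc

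The Tgfb1 window was 75.2% G and C with 5 GC boxes and no TATAAA. The Inhba window was 43.2% G and C, with 1 TATAAA and no GC box. The Furin window was 83.2% G and C, with 2 GC boxes and 1 CAGACA. The window of the first Furin start, not shown, was 50.4% G and C, with 1 TATAAA, 1 CAGACA and no GC box. The Nrros window was 58.4% G and C and held none of the 5 motifs. Among the windows not shown, the 3 of Ltbp4 were 64.4%, 79.2% and 79.2% G and C. They held 3, 5 and 7 GC boxes, and the last 2 of these windows overlap. The Ltbp3 window was 47.2% G and C and held none of the 5 motifs. The median G and C share of the 32851 upstream windows in the table was 52.4%. Of these windows, 32.7% held a GC box, 12.4% TATAAA, 17.1% CAGACA, 4.46% TGACTCA and 1.55% TGACGTCA. Neither of the last 2 motifs was found in the 4 windows shown. A match describes letters only, and no binding was measured.

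Counts on named genes summed to 30877656 in the activin A and 33470161 in the TGFβ1 culture, and levels are given as CPM, the count relative to the depth of its library after scaling. Each condition has 1 library, so no difference below has a replicate check, no p-value was computed, and the ranges in parentheses are 95% counting intervals. Where a pair of values is given for a gene, the activin A culture comes first. Both libraries carried the defining genes of CD4 T cells. Of 13 listed, 12 were found and all 12 exceeded 1 CPM, with summed levels of 4078 and 4117 CPM in the activin A and TGFβ1 culture. In bulk RNA, fewer cells of a type and less RNA per cell cannot be told apart.

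Tgfb1 and Furin were transcribed at high levels in both cultures, Nrros and Inhba at lower levels, and Lrrc32, Ltbp4, Tgfb3 and Ltbp3 at very low levels. Levels between genes are compared per length, in FPKM (fragments relative to transcript length and depth) from the authors' deposited table. The order in the activin A culture was Furin at 113.9 FPKM, Tgfb1 at 78.4, Nrros at 8.83, Inhba at 2.27, Lrrc32 at 0.488, Ltbp4 at 0.243, Ltbp3 at 0.029 and Tgfb3 at 0. In the TGFβ1 culture it was Furin at 101.7 FPKM, Tgfb1 at 72.1, Nrros at 5.04, Inhba at 1.56, Lrrc32 at 0.818, Ltbp4 at 0.148, Tgfb3 at 0.092 and Ltbp3 at 0.015. The libraries gave the same order for the first 6 genes, and the last 2 rest on 12 counts or fewer per library. Over the genes whose mean reached 1 CPM, the median was 11.3 FPKM in either library, which Furin and Tgfb1 exceeded and the other 6 genes did not reach.

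**Figure D1:**
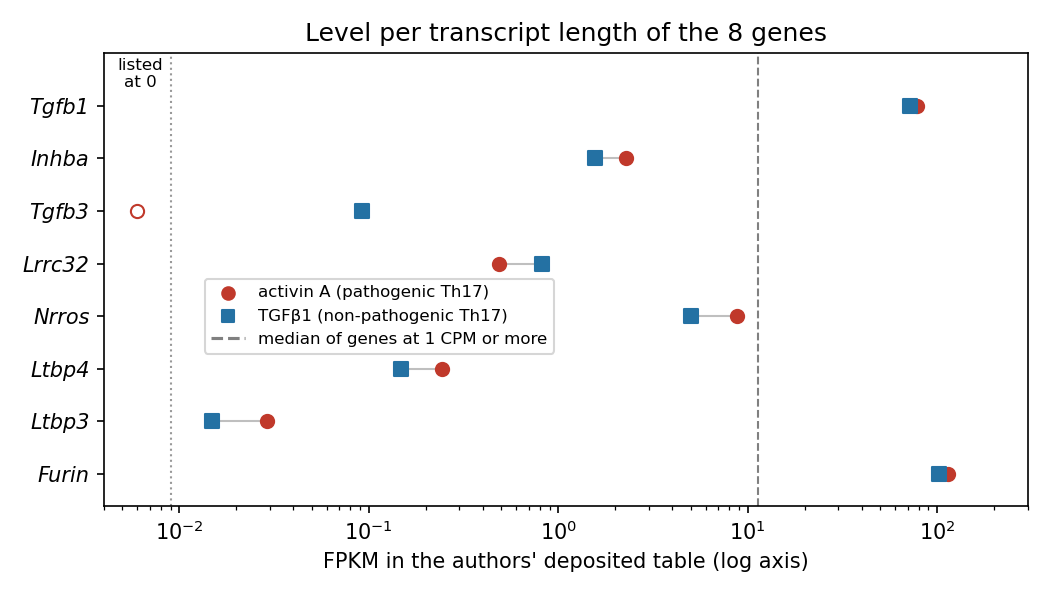
Deposited FPKM (log axis) of the 8 genes in the activin A (pathogenic Th17) library (circles) and the TGFβ1 (non-pathogenic Th17) library (squares), 1 library each. The dashed line is the median of genes at 1 CPM or more, the open circle marks Tgfb3, which is listed at 0 in the activin A culture, and Furin and Tgfb1 lie far above the other genes.

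None of the 6 genes that reached a mean of 1 CPM differed by 2-fold or more between the libraries, where 4.20% of all 10597 genes at that level did (2.25% higher in the activin A and 1.95% in the TGFβ1 culture). At 1.5-fold, 3 of the 6 were past the threshold, against 13.0% of all genes. These were Nrros and Ltbp4, higher in the activin A culture, and Lrrc32, higher in the TGFβ1 culture. Ltbp4 reached the mean of 1 CPM only through the library where it was higher, so its place among the 6, in these counts and in the median below, is tied to its direction. The counting interval excluded a ratio of 1 for all 6, as it did for 66.9% of all genes (33.0% higher in the activin A and 34.0% in the TGFβ1 culture). With a trend of the ratio with transcript length and G and C content removed, the interval of Tgfb1 held 1, which left 5 of the 6. Counts of 2 were 3.88 and 4.57 times as frequent as counts of 1 in the activin A and TGFβ1 culture, so 1 fragment may stand behind several counts and the true counting error may exceed the intervals. With every count halved, the interval of Ltbp4 held 1 and those of the other 5 did not, against 55.1% of all genes. The median log2 ratio of the 6 genes, activin A over TGFβ1, was 0.30, and that of all genes was −0.0045. Tgfb3 and Ltbp3 stayed under 1 CPM.

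**Figure D2:**
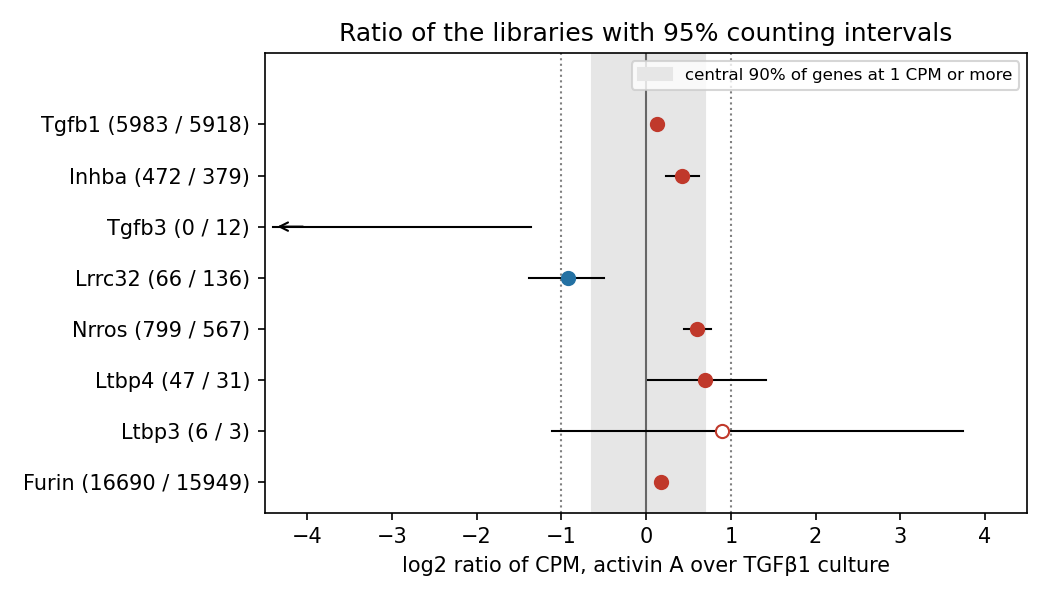
The log2 ratio of CPM, activin A over TGFβ1, with its 95% counting interval, and the counts in the activin A and the TGFβ1 culture after each name. Red points lie above 0 and blue points below, open points did not reach a mean of 1 CPM, Tgfb3 (0 and 12 counts) is drawn as its interval alone, dotted lines stand at 2-fold, the band holds the central 90% of genes (−0.63 to 0.70), and Lrrc32 is the 1 gene of the 6 at 1 CPM or more that lies left of 0.

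Among the ligands, Tgfb1 (ENSMUSG00000002603, chromosome 7, 25687002 to 25705077, plus strand), which encodes TGF-β1, had 5983 counts in the activin A and 5918 in the TGFβ1 culture, or 193.5 and 177.1 CPM. The gene of the cytokine that was added to the TGFβ1 culture was thus 1.09-fold higher in the culture without it (1.05 to 1.13). This is a small difference among these libraries, since 33.9% of all genes lay nearer to a ratio of 1. Once the trend with transcript length and G and C content was removed, the log2 ratio of Tgfb1 was 0.026 in place of 0.13, and its interval held 1. Its longest coding transcript has 7 exons and is 62.5% G and C.

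Inhba (ENSMUSG00000041324, chromosome 13, 16011851 to 16031621, plus strand), the gene of the activin A subunit, had 472 and 379 counts, or 15.3 CPM in the activin A and 11.3 CPM in the TGFβ1 culture. The culture that was given activin A protein had 1.34-fold more Inhba transcript (1.17 to 1.54), and 78.1% of all genes lay nearer to 1. By deposited FPKM the ratio was 1.46. Per length, Inhba stood at 1 part in 34.5 of Tgfb1 in the activin A culture and 1 part in 46.2 in the TGFβ1 culture. Tgfb1 alone made up 97.2% of the summed FPKM of the 3 ligands in the activin A and 97.8% in the TGFβ1 culture.

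Tgfb3 (ENSMUSG00000021253, chromosome 12, 86056745 to 86079041, minus strand), the gene of TGF-β3, had 0 counts in the activin A and 12 in the TGFβ1 culture. Its 0.359 CPM there had an exact Poisson interval of 0.186 to 0.627 CPM. The floor of 3 counts in the activin A culture is 0.097 CPM, against which Tgfb3 stood 3.70-fold higher in the TGFβ1 culture. This is not a lower bound, since its counting interval starts at 2.57-fold. With every count halved, the interval of Tgfb3 ended nearest to 0 at a log2 ratio of −0.12. Of its 3383 exonic bases, 257 and 163 overlap 2 antisense transcripts that have no row in the table, and without strand marking their reads cannot be told apart.

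Furin (ENSMUSG00000030530, chromosome 7, 80388585 to 80405436, minus strand) encodes the convertase and had the most counts of the 8 genes, 16690 and 15949, or 539.7 and 477.2 CPM. It was 1.13-fold higher in the activin A culture (1.11 to 1.16), and 45.0% of all genes lay nearer to 1. The FPKM of Furin was 1.45 times that of Tgfb1 in the activin A and 1.41 times in the TGFβ1 culture. The ratio of their counts differed 1.04-fold between libraries, with an interval of 0.992 to 1.08 that holds 1, so counting error allows a difference of up to 1.08-fold. This holds for the ratios as counted, and with the length and G and C trend removed the log2 ratios were 0.17 for Furin and 0.026 for Tgfb1, further apart than that limit.

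The 2 anchors of latent TGF-β on cell surfaces went opposite ways. Lrrc32 (ENSMUSG00000090958, chromosome 7, 98489283 to 98502181, plus strand), which encodes GARP, had 66 counts in the activin A and 136 in the TGFβ1 culture, or 2.13 and 4.07 CPM. It was 1.89-fold higher in the TGFβ1 culture (1.41 to 2.60), and 94.6% of all genes lay nearer to 1. Nrros (ENSMUSG00000052384, chromosome 16, 32142785 to 32165594, minus strand), which encodes LRRC33, had 799 and 567 counts, or 25.8 and 17.0 CPM. Nrros was 1.52-fold higher in the activin A culture (1.37 to 1.70), and 87.8% of all genes lay nearer to 1. The ratio of Lrrc32 to Nrros counts was 2.90-fold higher in the TGFβ1 culture (2.10 to 4.03). This ratio is taken within each library and does not depend on how the libraries were scaled.

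Per length, Nrros was the main anchor transcript in both libraries. Lrrc32 made up 5.24% of the summed FPKM of both anchors in the activin A and 14.0% in the TGFβ1 culture. The sum was 9.32 FPKM, or 11.9% of the FPKM of Tgfb1, in the activin A culture. In the TGFβ1 culture the sum was 5.85 FPKM, or 8.12% of that of Tgfb1. For both genes the deposited FPKM gave a higher activin A share than the counts did, with log2 ratios that differed by 0.18 for Lrrc32 and 0.20 for Nrros, where the central 90% of genes spanned −0.080 to 0.11 in the same difference. The FPKM ratio was 1.75 for Nrros, and Lrrc32 was 1.68-fold higher in the TGFβ1 culture by FPKM. The cause was not tested.

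Genes known from regulatory T cells were read beside Lrrc32. Of 16 listed, all were measured, with 6 log2 ratios above 0 and 10 below. On the side of the TGFβ1 culture 3 passed 2-fold, where 1.95% of all 10597 genes did. Of these 3, Itgae, at 0.744 and 2.15 CPM, reached a mean of 1 CPM only through that culture. The list's median log2 ratio was −0.18, and its summed level was 3877 CPM in the activin A and 3996 CPM in the TGFβ1 culture. Foxp3, the master regulator of these cells and 1 of the 3, had 1181 counts in the activin A and 3026 in the TGFβ1 culture. It was 2.37-fold higher in the TGFβ1 culture (2.22 to 2.54). Il2ra, with the most counts of the list (56867 and 68294), was 1.11-fold higher in the TGFβ1 culture. The interval excluded a ratio of 1 for all 6 genes above 0 and for 8 of the 10 below, and for 66.9% of all genes. Among the 6, Ikzf2 was 1.77-fold higher in the activin A culture (1.49 to 2.11) and Tnfrsf18 1.60-fold higher (1.45 to 1.77). Whether the number of regulatory T cells differed between cultures, and its part in the level of Lrrc32, was not tested.

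Platelets and megakaryocytes are another known source of GARP. Of 9 of their markers, 4 had counts in the activin A and 4 in the TGFβ1 culture, with summed levels of 1.20 and 1.80 CPM, and Pf4 and Treml1 were among those at 0 in both. None of the 9 reached a mean of 1 CPM. The marker with the most counts was Itga2b, at 29 and 34, with a log2 ratio of −0.11 (−0.88 to 0.64). Gp1ba, at 5 and 20 counts, was 3.27-fold higher in the TGFβ1 culture (1.35 to 12.6). Ppbp and Gp5 had counts only in the TGFβ1 culture, and Gp9 and Gp1bb only in the activin A culture. The part of platelets and megakaryocytes in the level of Lrrc32 was not tested. Myeloid and dendritic cell markers were read beside Nrros. Of 18, 8 had counts in the activin A and 9 in the TGFβ1 culture, and they summed to 7.73 and 7.57 CPM. Csf1r, Adgre1, Cd14, Flt3, Siglech, C1qa and C1qb were at 0 in both. Itgam and Itgax had 24 and 20 counts in the TGFβ1 culture and 0 in the activin A culture, and both stayed under 1 CPM. The 2 markers that reached a mean of 1 CPM were Cd68 and Cd74. Cd68 had the most counts, at 110 and 123. Cd74, at 94 and 61, was 1.65-fold higher in the activin A culture (1.19 to 2.34). The part of myeloid and dendritic cells in the level of Nrros was not tested.

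Transcripts of the latent TGF-β binding proteins were scarce. Ltbp4 (ENSMUSG00000040488, chromosome 7, 27305136 to 27337692, minus strand) had 47 counts in the activin A and 31 in the TGFβ1 culture, or 1.52 and 0.928 CPM, and exceeded 1 CPM only in the library where it was higher. The ratio was 1.62 (1.02 to 2.67). Ltbp3 (ENSMUSG00000024940, chromosome 19, 5740904 to 5758532, plus strand) had 6 and 3 counts, a ratio of 1.86 whose interval, 0.462 to 13.4, holds 1. The other 2 genes of this family, Ltbp1 and Ltbp2, had no count in either library, which allows up to 3 counts each. The summed FPKM of Ltbp3 and Ltbp4 was 0.347% of that of Tgfb1 in the activin A and 0.227% in the TGFβ1 culture.

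Markers of stromal and endothelial cells, which make these matrix proteins, were low as well. Of 10, 2 had counts in the activin A and 3 in the TGFβ1 culture, summing to 12.3 and 15.7 CPM, nearly all from Pecam1 and Pdpn. Pecam1, at 253 and 289 counts, had a log2 ratio of −0.080 (−0.33 to 0.17). Pdpn, at 127 and 229 counts, was 1.66-fold higher in the TGFβ1 culture (1.34 to 2.09). Col1a1, Col3a1, Pdgfra, Pdgfrb, Cdh5, Kdr and Ccl19 were at 0 in both. B cell markers summed to 0.808 and 0.180 CPM over 8 genes, of which 5 were at 0 in both. CD8 T and NK cell markers summed to 3.49 and 4.82 CPM over 7 genes, with Klrd1 at 47 and 98 counts and Ncr1, Klrb1c and Klra8 at 0 in both. Erythroid markers summed to 3.17 and 3.53 CPM over 7 genes.

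Taking each gene relative to Tgfb1 in its own library sets the scaling aside. Relative to Tgfb1, Inhba was 1.23-fold higher in the activin A culture (1.07 to 1.42) and Nrros 1.39-fold higher (1.24 to 1.56). Lrrc32 relative to Tgfb1 was 2.08-fold higher in the TGFβ1 culture (1.54 to 2.85). The intervals of Ltbp4, 0.932 to 2.45, and of Ltbp3, 0.422 to 12.2, held 1. Inhba relative to Furin was 1.19-fold higher in the activin A culture (1.04 to 1.37).

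**Figure D3:**
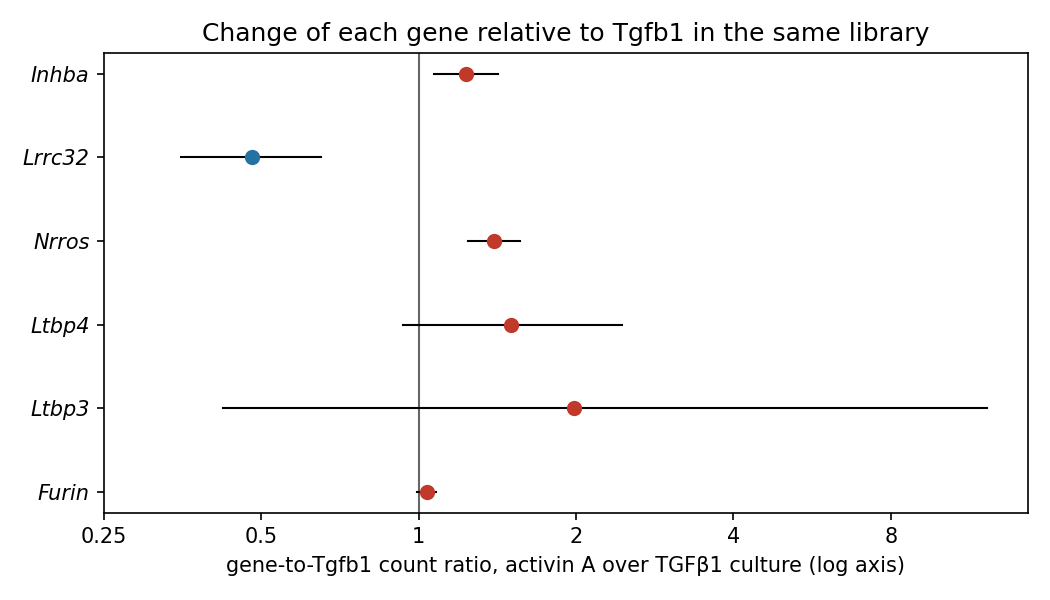
The count of each gene over the count of Tgfb1 in the same library, activin A over TGFβ1 (log axis), with exact 95% counting intervals. Nrros and Inhba lie right of 1, Lrrc32 at 0.480 lies left of it, and the intervals of Furin, Ltbp4 and Ltbp3 cross 1.

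Other ligands of the family were few. Of 31 listed by name, Bmp1 among them, 10 had counts and 3 reached 1 CPM, none past 2-fold. Bmp7, a bone morphogenetic protein, had 178 and 133 counts and a ratio of 1.44 (1.15 to 1.82). Gdf11, a relative of activin that uses the same receptors, had 512 and 453 counts and a ratio of 1.22 (1.07 to 1.39). Bmp1, which despite its name is a metalloprotease that also cleaves latent TGF-β binding protein, was 1.27-fold higher in the TGFβ1 culture (1.02 to 1.58). Of these 3 genes, the ligand genes Bmp7 and Gdf11 had a log2 ratio above 0 and Bmp1 had one below. The median of the 3, Bmp1 included, was 0.29.

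Besides Furin, 3 of 8 listed proprotein convertases reached 1 CPM, 1 with a log2 ratio above 0 and 2 below, none past 2-fold. Pcsk7, a convertase of the secretory pathway, had 1100 and 1464 counts and was 1.23-fold higher in the TGFβ1 culture (1.14 to 1.33). Mbtps1, the site-1 protease, was 1.06-fold higher there (1.01 to 1.11), and Pcsk4 was 1.38-fold higher in the activin A culture (1.17 to 1.64). Their summed level with the other listed convertases was 146.1 CPM in the activin A and 156.2 CPM in the TGFβ1 culture.

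Of 19 integrins, proteases and other genes linked to release of TGF-β from its latent form, 13 reached 1 CPM, 5 with a log2 ratio above 0 and 8 below, with a median of −0.042. Of the 13, 2 were past 2-fold, Plaur and Plau, against 4.20% of all genes. Each of the 2 reached a mean of 1 CPM only through the library where it was higher. Plaur, the urokinase receptor gene, had 131 and 29 counts and was 4.75-fold higher in the activin A culture (3.25 to 7.57). Plau, which encodes urokinase itself, had 25 and 105 counts and was 3.78-fold higher in the TGFβ1 culture (2.49 to 6.28). Thbs1, the gene of the TGF-β activator thrombospondin-1, differed by more, with 0 and 28 counts, but its mean stayed under 1 CPM. Against the floor of 3 counts, Thbs1 stood 8.64-fold higher in the TGFβ1 culture, and its counting interval starts at 6.57-fold. Itgav, the αv integrin chain that binds latent TGF-β, had 1873 and 2379 counts and was 1.18-fold higher in the TGFβ1 culture (1.11 to 1.25). Among 16 matrix partners 3 reached 1 CPM, none past 2-fold, with a median of 0.17. They were the metalloprotease gene Adamts10 at a ratio of 1.15 (1.05 to 1.25), the transglutaminase gene Tgm2 at 1.12 (1.05 to 1.20) and Emilin1 at a log2 ratio of −0.11 (−0.43 to 0.21).

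Extracellular traps of these ligands came to 2 genes at 1 CPM of 19 listed, and they lay on either side of a ratio of 1. Twsg1, a modulator of bone morphogenetic proteins, had 4491 and 8409 counts and was 1.73-fold higher in the TGFβ1 culture (1.67 to 1.80). Wfikkn2, a trap of GDF11 and myostatin, had 160 and 92 counts and was 1.87-fold higher in the activin A culture (1.45 to 2.46).

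Downstream of the ligands the ratios lay mostly below 1. Of 12 receptor genes at 1 CPM, 10 had a log2 ratio below 0, with a median of −0.48 for the 12. On the side of the TGFβ1 culture 3 passed 2-fold, where 1.95% of all 10597 genes did. These 3 were Eng, a co-receptor, with 73 and 321 counts, Bmpr2, a receptor of bone morphogenetic proteins, with 1139 and 2487, and the type I receptor gene Acvr1, with 105 and 242. Acvr2a, a receptor of activin, had 1669 and 3521 counts and was 1.95-fold higher in the TGFβ1 culture, short of 2-fold. Of 18 SMADs and regulators, 15 lay below 0, with a median of −0.24 for the 18. Of the 18, 1 was past 2-fold, against 4.20% of all genes either way. That gene was Ldlrad4, an inhibitor of SMAD phosphorylation, with 288 and 726 counts. Pmepa1, another feedback inhibitor, had a log2 ratio of −0.50, and Smurf1, a ubiquitin ligase of the pathway, one of −0.52.

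**Figure D4:**
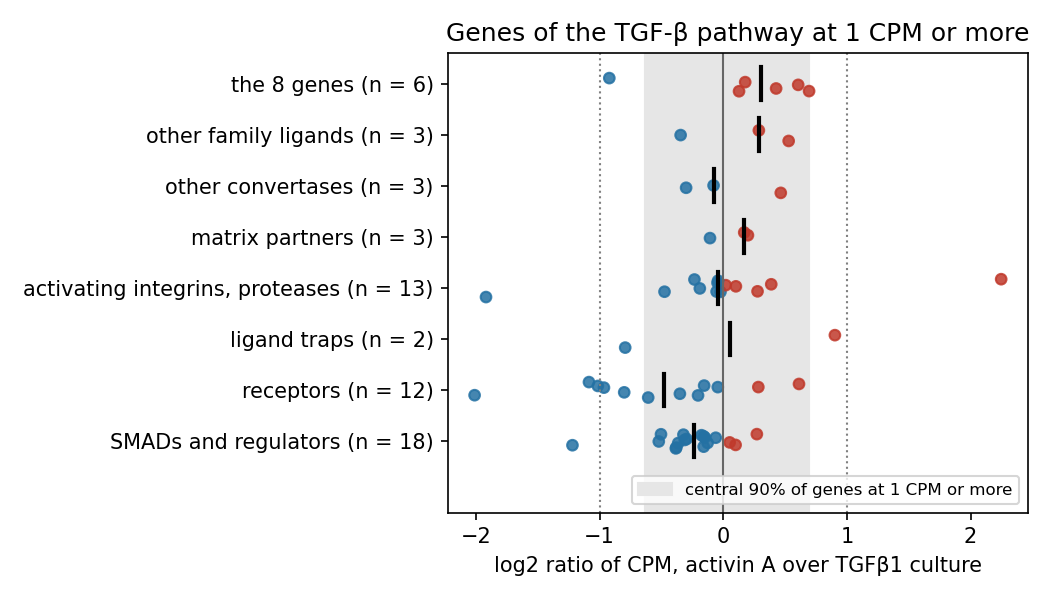
Log2 ratio of CPM, activin A over TGFβ1, of the genes at 1 CPM or more in each list, 1 point per gene, with the list median as a black bar and the central 90% of all genes as a grey band. Dotted lines stand at 2-fold, and the receptor genes (median −0.48) extend furthest to the left.

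Genes of folding and transport in the early secretory pathway, through which these precursors pass, were measured in all 18 listed cases, 5 with a log2 ratio above 0 and 13 below, with a median of −0.13. Sec61b, a small subunit of the translocation channel, was 2.02-fold higher in the activin A culture (1.89 to 2.16), and Sec61g, another small subunit, 1.73-fold higher (1.57 to 1.90). Pdia3, a disulfide isomerase gene, was 1.30-fold higher in the TGFβ1 culture (1.28 to 1.32).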

How the data were processed

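Polyadenylated RNA was captured, fragmented and copied from random primers, per the labels' protocols, which describe neither strand marking nor molecular identifiers. The authors deposited whole-number counts per gene and FPKM values for the same rows, per the file headers. Per the submitters' processing notes, mm10 was the build. No source used here names the aligner, counter or annotation. Of 23702 rows, 20 held no feature. The 1646 numbered features without a gene name took 2.50% and 2.90% of counts in the activin A and TGFβ1 culture and did not enter library sizes. Positions, transcript lengths and G and C content are from GENCODE M21 (GRCm38, the assembly named mm10), in which 22022 of 22036 identifiers were found.

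Libraries were scaled by TMM (edgeR 4.0.16, R 4.3.3). A ratio is the log2 of activin A over TGFβ1 CPM with a prior count of 1. The 95% interval comes from the exact Clopper-Pearson limits on the share of counts in the activin A culture, and that of a ratio of 2 genes is the exact conditional interval of the odds ratio (scipy 1.17.1). A gene was counted as past a threshold at 2-fold among genes whose mean CPM reached 1. With 1 library per condition no test was made, and intervals and the floor of 3 counts cover counting error only. PCR reads are not independent molecules, so even the true counting error may exceed the intervals. The calculations were tested on simulated data. The members and lists were chosen with earlier results of these data known. Named genes are all 8 members and, from each other list, up to 3 genes at 1 CPM or more. These were ranked by the end of the interval nearest to 1, those with that end furthest from 1 first. For marker lists the gene with the most counts is named, except in the CD4 T cell, B cell and erythroid lists. Genes named because they had no count, and any others outside that rule, were chosen after their values were seen. Alternatives were DESeq2 1.42.0 size factors, total counts, other priors, filters and thresholds, the deposited FPKM, and a loess trend on length and G and C content removed. Some genes of the lists are not reported here by name, though they stay in the counts and sums.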

Additional observations from a re-analysis of the deposited data

How the results depend on the processing

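All 71 alternative values of the 8 log2 ratios kept their sign, and 65 stayed inside the counting interval. The others were Tgfb1 at 0.026 with the length and G and C trend removed; Tgfb3 at −0.94 as log2(FPKM + 0.1) and −0.13 as log2(FPKM + 1); Lrrc32 at −0.29 as log2(FPKM + 1); and Nrros at 0.81 by FPKM without a pseudocount and 0.80 with 0.1. A pseudocount of 1 exceeds the level of Lrrc32 and Tgfb3, which pulls their ratios toward 0. FPKM without a pseudocount gave no value for Tgfb3. In place of the 445 of 10597 genes (4.20%) past 2-fold, 2328 were with no filter and 197 under a filter at 5 CPM. These 2 numbers come from other totals of genes, and their shares were not computed. Of the members, Tgfb3 alone was past 2-fold with no filter, and none was under a filter at 5 CPM. Without those shares, the members cannot be set against all genes in these 2 settings. At 1.5-fold, 3 of the 6 genes that reached 1 CPM were past the threshold, against 1373 of 10597 (13.0%). By counts per kilobase of the longest coding transcript, Furin stood at 1.40 and 1.35 times Tgfb1 in the activin A and TGFβ1 culture, and Nrros at 0.081 and 0.058 times, where FPKM gave 0.113 and 0.070; the cause was not tested. Of 27 alternative list medians, 25 kept their sign. With no filter the median was 0.62 for the other convertases and −0.11 for the matrix partners, where more genes of few counts enter. The interval with halved counts and the ratios within a library were chosen after seeing the data. Depth limits Tgfb3, Ltbp3 and Ltbp4, which had at most 47 counts per library. No paired analysis was possible because each condition has 1 library.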

Other observations

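A few other ligand and trap genes stood under 1 CPM and were picked after their values were seen. Fst, which encodes the activin trap follistatin, had 5 counts in the activin A and 17 in the TGFβ1 culture, a log2 ratio of −1.49 (−3.45 to −0.16). Mstn, the myostatin gene, had 6 and 0 counts. Tgfb2, the gene of the third TGF-β isoform, had 13 counts in the activin A and 7 in the TGFβ1 culture, more than Tgfb3 in the activin A and fewer in the TGFβ1 culture.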
